A study of Mus musculus with 16 samples.

Results

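The loss of 1 of the 2 alleles of *Nprl3* was examined in S1 erythroblasts, the least mature of the sorted stages, by comparing the 2 heterozygous (Het) libraries with the 4 wild-type (WT) libraries of the same stage. These 6 libraries were chosen by genotype and stage as the labels give them, out of 16 libraries in the series, and 13818 of the 55416 genes in the count table were expressed highly enough to be tested. All embryos were taken at E13.5. WT embryos carried 2 intact alleles, while Het embryos carried 1 intact allele and 1 from which the *Nprl3* promoter had been deleted. The line had been backcrossed towards C57BL/6J. Homozygous (KO) embryos lack both promoters, and their 2 S1 libraries are given beside the others for reference. The deletion is constitutive, so every tissue of a Het embryo carries it, and the α-globin enhancers that lie within the gene are left in place. Erythroblasts were sorted from foetal liver by Ter119 and CD71, their RNA was amplified, and polyadenylated RNA was sequenced, with 1 library per embryo. The labels' tissue field names an embryonic stem cell line, whereas their titles and the sorting protocol give foetal liver. Both Het embryos (3 and 4) were male, as were WT embryos 0 and 8, while WT embryos 1 and 5 were female.

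Nprl3 is a subunit of GATOR1, the complex that switches off the kinase complex mTORC1 at the lysosome when amino acids are scarce. GATOR1 does so by acting on the Rag GTPases, and is itself held in check by GATOR2 and tethered to the lysosome by KICSTOR. Active mTORC1 promotes protein synthesis, glycolysis and the ATF4 programme of amino acid synthesis, and restrains autophagy. Erythroid progenitors at this stage express the transcription factors Gata1 and Klf1 and the receptors Kit and Epor, and begin to make haemoglobin only later.

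The deleted element is the promoter, so its sequence is shown here as the intact allele carries it. The exact ends of the deletion are not given in the sources used here. These are the 250 bases upstream of the start of *Nprl3* (RefSeq, found by exact match at chr11:32217708-32217957 on the minus strand of GRCm39, directly next to the annotated end of the gene), written 5′ to 3′ with each CG dinucleotide in capitals.
Nprl3 promoter: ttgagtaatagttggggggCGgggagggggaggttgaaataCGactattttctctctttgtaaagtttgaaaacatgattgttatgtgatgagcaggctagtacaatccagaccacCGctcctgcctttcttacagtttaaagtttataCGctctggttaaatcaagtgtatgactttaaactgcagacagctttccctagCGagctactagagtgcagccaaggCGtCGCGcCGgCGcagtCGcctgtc
The window holds 11 CG dinucleotides, the letters CG being the same on both strands, and 7 of them lie in the last 100 bases before the start. Of 32851 RefSeq promoter windows of this length, 35.6% hold at least as many.

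The S1 libraries held 23331156 to 36035368 counted read pairs and had markers of the stage in each. *Gata1* lay between 12075 and 15067 normalized counts (counts scaled to a common library size over the 8 S1 libraries) in WT and Het, and *Kit* between 2299 and 5163. The WT libraries of the male embryos 0 and 8 stood apart from the rest before any comparison. Globin genes took 1.07% of the counts in WT 0 and 1.00% in WT 8, against 0.184% in WT 1, 0.290% in WT 5, and 0.104% and 0.137% in the Het libraries. The first principal component of the 1000 most variable genes, which held 68.0% of their variance, placed WT 0 and WT 8 at 31.7 and 53.7 and the other 4 libraries between -26.5 and -15.1. Both Het libraries correlated best with WT 5 among the WT libraries (Pearson 0.990 and 0.989 over genes on a log2 scale). Since WT 0 and WT 8 are also the only male WT libraries, sex and this difference cannot be told apart among the WT embryos.

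*Nprl3*, the targeted gene, was at 1127, 899, 987 and 1405 normalized counts in WT 0, 1, 5 and 8, at 519 and 532 in Het 3 and 4, and at 13.2 and 28.3 in the KO libraries. The 3 genotypes did not overlap. The Het mean of 526 ± 8.91 (SD, n = 2) was 0.476 of the WT mean of 1104 ± 222 (SD, n = 4). On the log2 scale the difference was -1.07 (standard error 0.24, 95% confidence interval -1.62 to -0.52). In edgeR's quasi-likelihood test this failed the adjustment for the number of genes (Benjamini-Hochberg adjusted p = 0.907), and in DESeq2 it passed (log2 fold change -1.06, adjusted p = 0.0328). The gene is annotated at chr11:32175628-32217707 on the minus strand of mm39. Its count also takes in polyadenylated transcripts that start at the α-globin enhancers inside the gene, which a count per gene does not tell apart from promoter-derived mRNA.

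**Figure D1:**
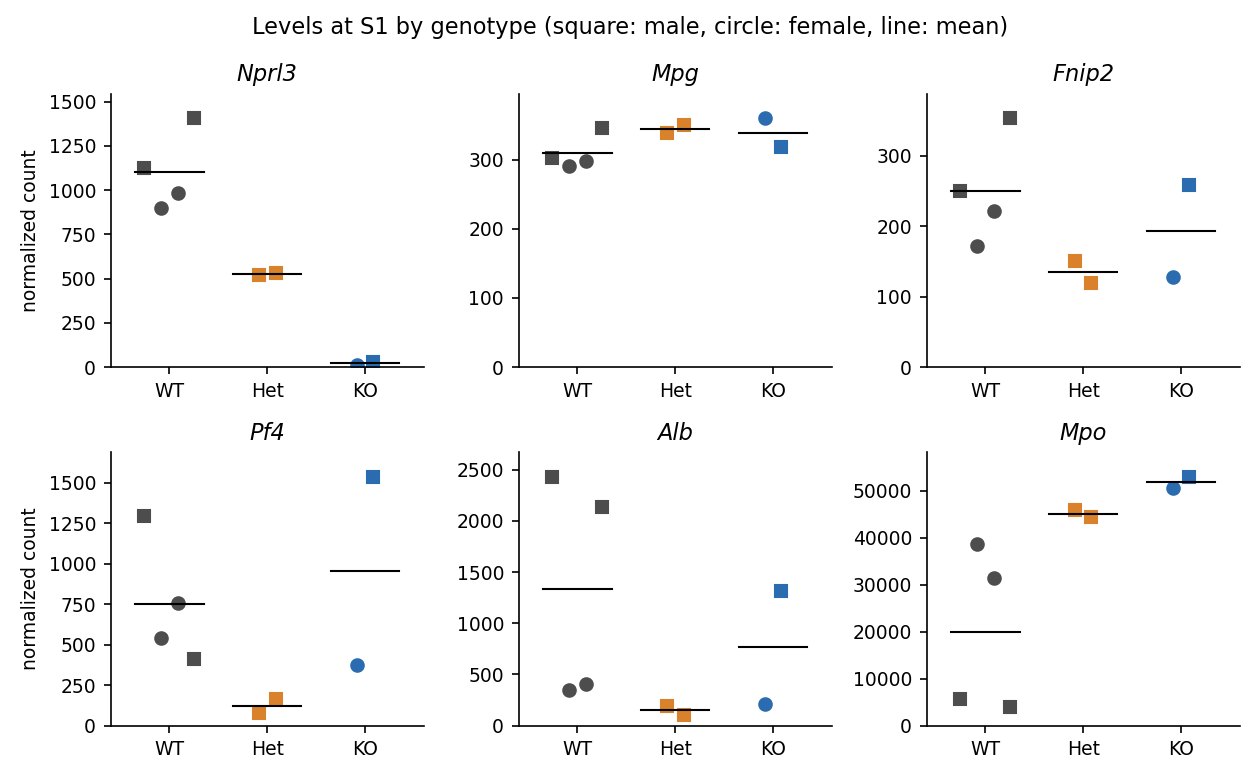
Normalized counts (vertical axes, from 0) of 6 genes in each S1 library by genotype, with squares for male and circles for female embryos and a line at the mean. Nprl3 separates WT, Het and KO, the gene Mpg beside it does not, and Alb and Mpo divide the WT libraries into WT 0 and 8 on one side and WT 1 and 5 on the other.

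No gene, *Nprl3* included, separated Het from WT after correction in edgeR. Of the 13818 genes tested, 0 were higher (0%) and 0 were lower (0%) at an adjusted p under 0.05, and the smallest adjusted p in edgeR was 0.907. At an unadjusted p under 0.05, 40 genes were higher (0.289%) and 540 were lower (3.91%). Both Het libraries lay above all 4 WT libraries for 1263 genes (9.14%) and below them for 1252 genes (9.06%), and the other 11303 overlapped. The median log2 fold change over all genes was -0.00. DESeq2 called 0 genes higher and 22 lower (0.160% of 13747). With sex as a covariate, edgeR called 179 genes higher (1.30%) and 202 lower (1.46%), a fit in which the Het libraries are set against WT 0 and WT 8, the 2 libraries that stood apart. When the Het libraries were set against the female WT embryos 1 and 5 only, an alternative chosen after seeing the data, edgeR called 4 genes higher and 1 lower, all of them sex-linked (*Eif2s3y*, *Ddx3y*, *Uty*, *Kdm5d* and *Xist*). In what follows, the adjusted p of each gene named was therefore 0.907 or more in edgeR unless another test is named, and "higher" and "lower" give the sign of a value.

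**Figure D2:**
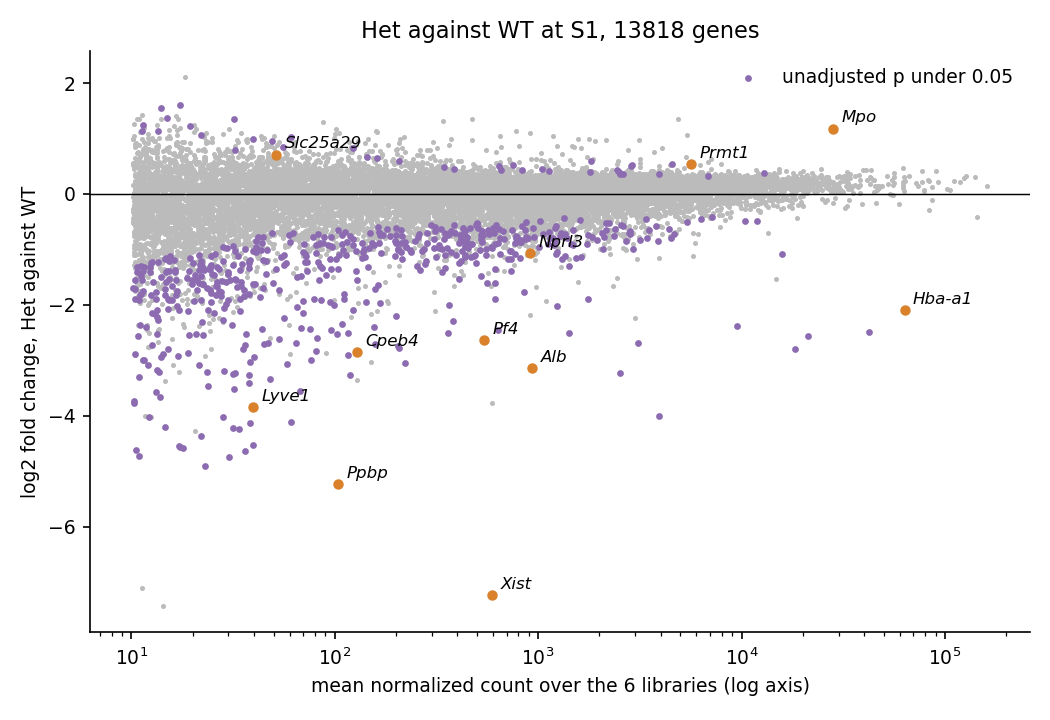
Log2 fold change of Het against WT (vertical axis) against the mean normalized count over the 6 libraries (horizontal log axis) for the 13818 genes tested, with genes at an unadjusted p under 0.05 in purple. Purple points lie mostly below 0, 540 against 40 above. The named low points are Nprl3, Ppbp, Pf4, Lyve1, Alb, Hba-a1, Cpeb4 and the sex-linked Xist.

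The genes of the nutrient-sensing pathway, from the sensors and GATOR complexes to mTORC1 and its substrates, lay close to WT, with a few exceptions. Of the 43 members tested of 46 listed, 26 had a log2 fold change above 0 and 17 below, with a median of 0.05 beside -0.00 over all genes, and 0 passed the correction. Both Het libraries lay above all WT libraries for 2 members and below for 7, beside 9.14% and 9.06% of all genes. The median changed sign with the libraries used, and was -0.02 without WT 1, 0.09 without WT 8 and -0.08 with male libraries only. *Nprl2*, the GATOR1 subunit that pairs with Nprl3, was at 1087, 1116, 1173 and 905 normalized counts in WT 0, 1, 5 and 8 and at 1199 and 1249 in Het, so that the Het libraries lay just above (log2 fold change 0.19, standard error 0.18). *Depdc5*, the third GATOR1 subunit, was at 304, 281, 280 and 507 in WT and at 264 and 215 in Het (log2 fold change -0.52, standard error 0.32), so that Het lay below. Per kilobase of exon, the 3 GATOR1 subunits stood in the order *Nprl2*, *Nprl3*, *Depdc5* in both genotypes, at 532, 146 and 29.1 normalized counts per kb in WT and at 608, 69.4 and 20.4 in Het.

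Other complexes of the pathway lay near WT for most genes. The KICSTOR genes *Kptn*, *Itfg2* and *Kics2* had values between 0.05 and 0.14. *Fnip2*, which acts with folliculin on the Rag GTPases, was at 251, 172, 222 and 353 in WT and at 150 and 119 in Het (log2 fold change -0.89, standard error 0.34). *Rragd*, a Rag GTPase gene, was at 29.4, 13.03, 7.31 and 52.2 in WT and at 6.87 and 4.71 in Het. Thus the Het libraries lay below all WT libraries for *Fnip2* and *Rragd*, which were also lower in KO 2 than in every WT library, whereas KO 9 lay within the WT range. All 5 GATOR2 genes overlapped between the genotypes. The kinase gene *Mtor* and its partner *Rptor* overlapped as well, at log2 fold changes of -0.49 and -0.61 with standard errors of 0.32 and 0.40.

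Genes of metabolism that mTORC1 promotes had mostly small positive values, and none passed the correction. The 21 glycolytic enzymes tested had a median log2 fold change of 0.17, with 16 above 0 and 5 below. Of these enzymes, 18 overlapped between the genotypes, beside 11303 of all 13818 genes. *Eno1*, an enolase, was at 54625, 82622, 89056 and 52521 normalized counts in WT 0, 1, 5 and 8 and at 86946 and 98905 in Het, and *Gapdh* at 106109, 126581, 161921 and 75081 against 148926 and 144280. In both genes WT 0 and WT 8 were the 2 lowest libraries and WT 5 lay within or above the Het range. The glucose transporter gene *Slc2a1* overlapped, at a log2 fold change of -0.85 (standard error 0.50). Against WT 1 and 5 only, the median over all 24 glycolysis genes tested was 0.02, in place of 0.13 over 4 WT libraries, and it was 0.28 without WT 5 and 0.08 without WT 0. It was 0.42 with sex as a covariate and 0.41 with male libraries only. With sex, edgeR called 0 of the 24 genes higher and 2 lower, beside 1.30% and 1.46% of all genes, and DESeq2 called 2 higher and 4 lower, beside 341 and 452 of 13752 genes. For *Bpgm*, which makes the bisphosphoglycerate that tunes oxygen release in red cells, Het lay below all WT libraries, at 1200 and 1348 against 1369 to 2581.

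Among the 3 enzymes of serine synthesis, 2 lay above WT. *Phgdh*, the first enzyme of the pathway, was at 17466, 17216, 18732 and 15082 normalized counts in WT and at 22182 and 20974 in Het (log2 fold change 0.33, standard error 0.15). *Psat1*, the next enzyme, was at 17053, 14617, 16937 and 16055 in WT and at 19961 and 18048 in Het (log2 fold change 0.23, standard error 0.15). Both lay above all WT libraries, which 9.14% of all genes did. *Psph*, which completes the pathway, overlapped (0.18, standard error 0.19). Among the other 10 members tested of the one-carbon list, 5 were above 0 and 5 below, and *Shmt1*, which passes one-carbon units to folate, was the single one above all WT libraries. The median of the 13 genes was 0.09, and it was -0.05 without Het 3 and -0.01 without WT 1.

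Across 37 tested ATF4 targets the median was 0.08, which became -0.08 without Het 3, -0.04 without WT 1, 0.05 without WT 5 and 0.17 without WT 8. Of the 12 enzymes of amino acid synthesis in the list, 11 were above 0, with a median of 0.21, and 4 (*Asns*, *Psat1*, *Phgdh* and *Got1*) lay above all WT libraries. These were the 4 of the 37 ATF4 targets that did, beside 9.14% of all genes. *Asns*, which makes asparagine, was at 32909, 29010, 34571 and 28207 in WT and at 35808 and 37751 in Het (log2 fold change 0.24, standard error 0.15). The amino acid transporters, tRNA synthetases and stress response genes of the list all overlapped, with medians of -0.10, 0.10 and -0.05.

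The study displays 11 genes of metabolism that it picked in KO against WT at S3, the later stage (the glycolytic *Pfkp*, *Gpi1*, *Aldoa*, *Tpi1*, *Pgk1* and *Pkm*, the serine and one-carbon *Phgdh*, *Psat1*, *Psph* and *Shmt2*, and *Gpt2*). At S1 all 11 had values above 0 in Het, between 0.10 and 0.35, with a median of 0.23. For *Phgdh* and *Psat1* alone of the 11 did the Het libraries clear the WT range, which they did above WT for 9.14% of all genes. By library, the list median relative to the WT mean was highest in WT 5 among WT and Het, at 0.35, against 0.31 and 0.20 in Het 3 and 4, and the median fold change was 0.41 with sex as a covariate. The S3 WT libraries on which the list was picked came from the same WT embryos as the S1 WT libraries, so the list is not fully independent of these samples. In KO at S1 the same genes had values of 0.06 to 1.38 against WT. The largest, *Gpt2*, an alanine aminotransferase, was at 151, 97.2, 164 and 170 normalized counts in WT, at 208 and 164 in Het and at 338 and 418 in KO, so that Het 4 lay among the WT libraries.

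Autophagy, lysosome and sterol genes showed no shared displacement. Of 42 autophagy and lysosome genes tested, 24 were above 0 and 18 below with a median of 0.03 (-0.01 without Het 3, 0.09 without WT 8), and 4 lay above all WT libraries, near the 9.14% of all genes, among them *Map1lc3b* and *Gabarap*, whose products coat the autophagosome membrane. *Map1lc3b* was at 5830, 5905, 5728 and 4219 in WT and at 5980 and 7031 in Het (log2 fold change 0.26, standard error 0.19). Of the 24 sterol synthesis genes, 23 overlapped, beside 11303 of all 13818 genes, and the median was -0.03 (0.13 without WT 8).

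Interferon-stimulated genes did not follow a common course in Het. Of 57 listed, 43 were tested, 29 were above 0 and 14 below, with a median of 0.10. It was 0.39 without Het 3 and -0.22 without Het 4, and it was 0.67 both with sex as a covariate and with male libraries only, but -0.28 against WT 1 and 5 only. Both Het libraries lay above all WT libraries for 1 of the 43 and below for 3, beside 9.14% and 9.06% of all genes. The 1 above was *Cmpk2*, a mitochondrial nucleotide kinase, at 1696 and 1887 normalized counts against 1268, 1422, 1619 and 1452. It was at 3612 and 2421 in KO. *Parp14*, an ADP-ribosyltransferase, lay on the other side, at 47.3, 72.1, 49.1 and 63.7 in WT and at 18.03 and 24.7 in Het, while KO was at 115 and 113 (log2 fold change of Het -1.45, standard error 0.37). *Ifit2* and *Ifit3* were also below all WT libraries. The library medians of the list were -0.05 and 0.51 in Het relative to the WT mean, against -0.49 to 0.44 in WT and 1.96 and 1.13 in KO.

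**Figure D3:**
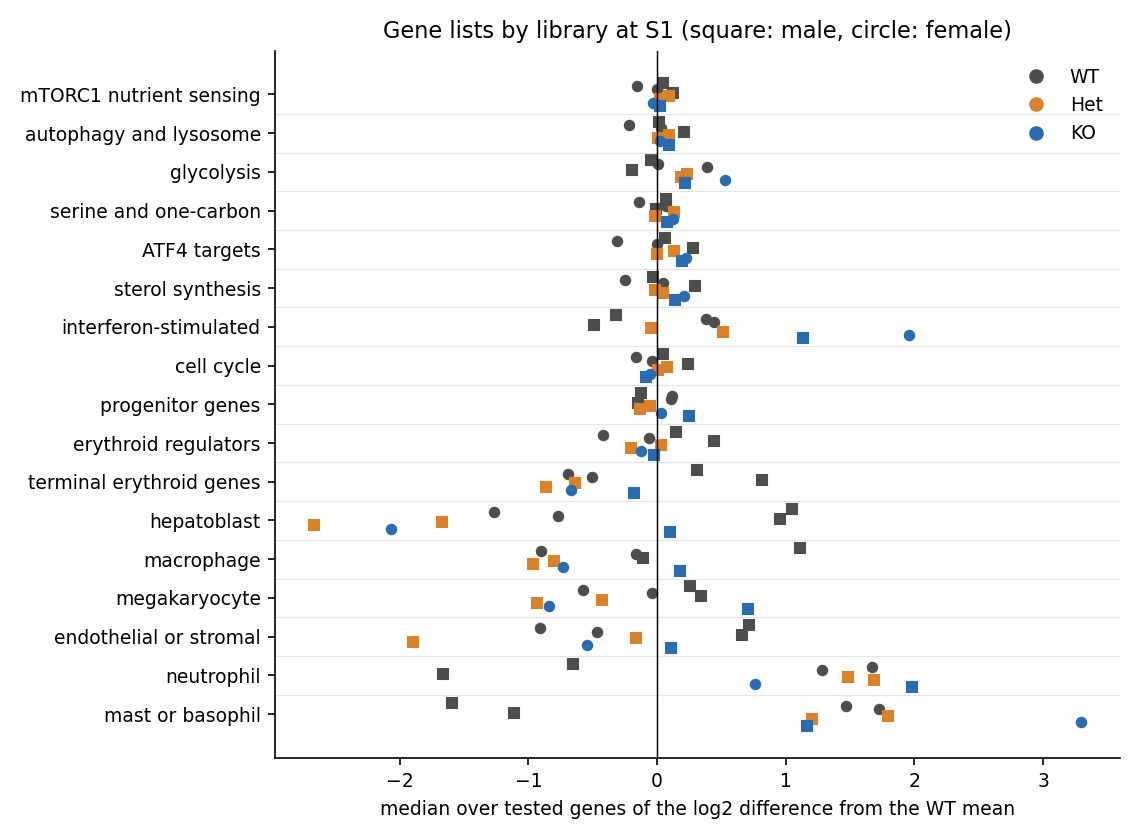
For 17 gene lists (rows), the median over tested members of the log2 difference from the WT mean (horizontal axis) in each S1 library, with colours for genotype and squares and circles for male and female embryos. Metabolic lists cluster near 0, while the terminal erythroid, hepatoblast, neutrophil and mast or basophil lists split the 2 male WT libraries from both female WT libraries and both Het libraries.

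Most regulators that define the erythroid lineage overlapped between Het and WT, as did 11303 of the 13818 genes tested. Of 15 transcription factor genes, 14 overlapped, and *Gata1* was at 14709, 12075, 13257 and 13186 in WT and at 15067 and 14730 in Het, just above. *Klf1*, *Epor* and *Kit* had log2 fold changes of 0.20, 0.03 and -0.04. Their standard errors were 0.18, 0.22 and 0.33. The median of the 23 regulators and signalling genes was -0.13, and it was -0.26 without WT 1 and -0.00 without WT 8. Of 8 genes of erythropoietin signalling, 6 were below 0 and 2 above, and all 8 overlapped. *Cish*, a feedback inhibitor of the receptor, was at 148, 60.1, 110 and 187 in WT and at 55.8 and 64.7 in Het.

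*Myc* and *Tfrc* were, with *Meis1*, the progenitor genes whose Het libraries lay outside the WT range. The median of the 15 tested was -0.04, and it was -0.22 without WT 0 and 0.03 without WT 1. With sex as a covariate it was 0.26, where edgeR called 2 of the 15 higher (1.30% of all genes were), and with male libraries only it was 0.14. *Myc* was at 11357, 13115, 14105 and 11146 in WT, at 17165 and 14728 in Het and at 12617 and 10874 in KO (log2 fold change 0.36, standard error 0.17). *Tfrc*, the transferrin receptor CD71 that was one of the sort markers, was at 15619, 16155, 14548 and 29948 in WT, at 10461 and 7629 in Het and at 10100 and 15840 in KO. Its log2 fold change was -1.08 (standard error 0.34). WT 8 was the highest library, and the Het libraries lay below the other 3 WT libraries as well.

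Terminal erythroid genes were mostly lower in Het, and the size of the difference depended on WT 0 and WT 8 and on the globin genes. Of 36 tested, 32 were below 0, with a median of -0.95, and the Het libraries lay below all WT libraries for 9 (9.06% of all genes did). *Hba-a1*, an adult α-globin gene, was at 139071, 26816, 42448 and 131886 normalized counts in WT 0, 1, 5 and 8 and at 16538 and 23182 in Het. *Hbb-bs*, an adult β-globin gene, was at 100713, 16313, 26988 and 88165 in WT and at 8734 and 11916 in Het. Both Het libraries were thus the lowest, but WT 1 stood nearer to Het than to WT 0. The log2 fold changes were -2.10 (standard error 0.71) and -2.49 (standard error 0.78). *Hba-a1* and *Hba-a2* are near-identical copies, and so are *Hbb-bs* and *Hbb-bt*, and how the reads divide between them is uncertain.

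Among the other maturation genes, *Slc4a1*, the band 3 anion exchanger, ranged most widely, at 5733, 253, 906 and 15958 in WT and at 391 and 324 in Het, so that Het 3 and 4 both lay above WT 1. *Alas2*, the erythroid enzyme that starts haem synthesis, was at 5647, 871, 1370 and 9391 in WT and at 667 in both Het libraries. In contrast, 7 of the 10 haem synthesis genes had values between -0.43 and 0.09, and the ferritin genes *Fth1* and *Ftl1* were at 0.07 and 0.31. The list median was -0.95 over 4 WT libraries, -0.43 without WT 8, and -0.04 against WT 1 and 5 only, and it was -0.43 over 4 WT libraries when globin genes were left out, the comparison with WT 1 and 5 being chosen after seeing the data. Globin took 0.636% ± 0.463 (SD, n = 4) of counts in WT and 0.120% in Het, a difference with p = 0.133 in a two-sided exact permutation test, whose smallest possible p in this design is 0.0667.

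None of the 34 cell cycle genes passed the correction, and both Het libraries lay above all WT libraries for 3 of the 34 and below for 4, near the 9.14% and 9.06% of all genes. Of the replication genes 9 of 14 were above 0 and of the mitosis genes 7 of 11, whereas 8 of 9 cyclin and inhibitor genes were below 0, with a median of -0.26. Over all 34 genes the median was -0.00, with 17 above 0 and 17 below, and it was -0.10 without WT 1 and 0.09 without WT 8. All 14 replication genes overlapped, with values between -0.38 and 0.24. *Mki67*, a coat protein of mitotic chromosomes, was at 3179, 4723, 1957 and 4218 in WT and at 1736 and 1811 in Het (log2 fold change -0.99, standard error 0.34). *Top2a*, the topoisomerase that untangles chromosomes, was at 6123, 6002, 4853 and 6919 in WT and at 4398 and 3972 in Het (-0.51, standard error 0.19). *Kif11*, a spindle motor, also lay below all WT libraries (-0.58, standard error 0.27), as did *Cdkn1b*, an inhibitor of cyclin-dependent kinases. The mitotic kinase genes *Aurkb* and *Plk1* and the cyclin-dependent kinase gene *Cdk4* lay just above all WT libraries, at 0.19, 0.22 and 0.20.

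The length of a gene's exons moved with the difference between the genotypes. Median log2 fold changes were 0.15 for the 1798 genes of 1 to 2 kb and -0.28 for the 2062 genes over 8 kb. Het lay below all WT libraries for 22.0% of the genes over 8 kb and for 5.39% of those of 1 to 2 kb. Across genes, which are not independent replicates and share these 6 libraries, the Spearman correlation of exon length and log2 fold change was -0.299 over 13818 genes and -0.427 over the 11392 protein-coding ones. By library, genes over 8 kb stood at -0.16 and -0.30 in Het 3 and 4 relative to the WT mean, at -0.09, 0.07, -0.17 and 0.22 in WT 0, 1, 5 and 8, and at -0.24 and 0.07 in KO 2 and 9. Het 3 was therefore level with WT 5, while WT 8 stood highest for long genes and lowest for genes under 1 kb (-0.48). *Fnip2*, *Mki67*, *Top2a* and *Setd1b* all exceed 8 kb. With an offset for exon length fitted to each library, an alternative chosen after seeing the data, *Setd1b* had a log2 fold change of -0.89 in place of -1.17, and *Nprl3*, of 7572 bases, -0.90 in place of -1.07. The part of exon length in the difference of any 1 gene was otherwise not tested.

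**Figure D4:**
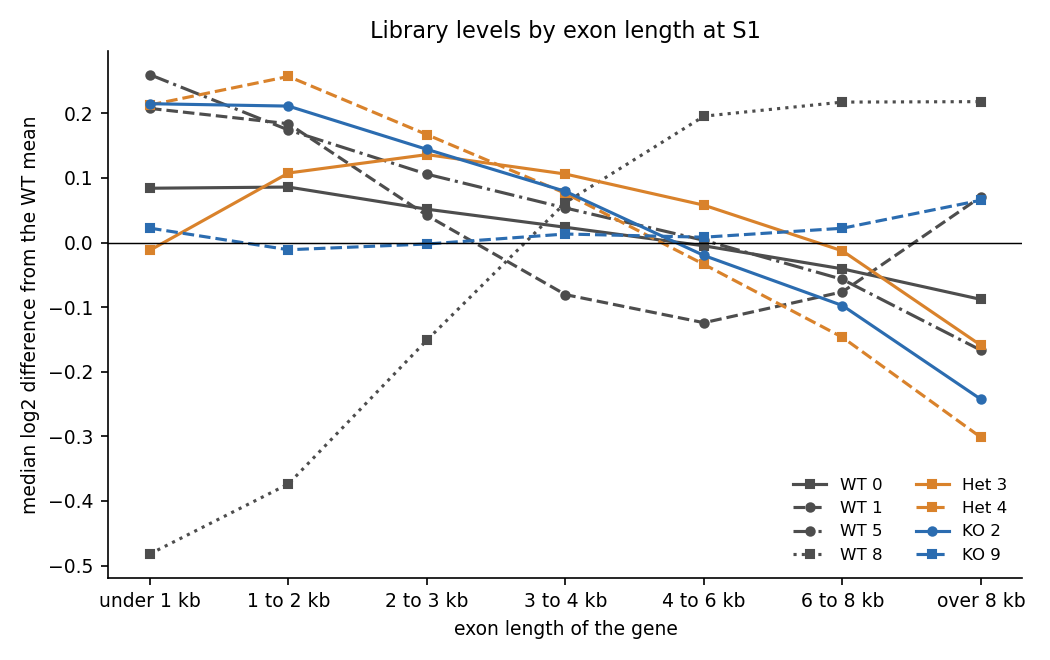
Median log2 difference from the WT mean (vertical axis) over the tested genes of each exon length class (horizontal axis), 1 line per S1 library, coloured by genotype and with squares for male embryos. Het 4 falls from 0.26 at 1 to 2 kb to -0.30 over 8 kb, KO 2 follows a like course, and WT 8 runs the opposite way, from -0.48 to 0.22.

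The genes that ranked first among the higher ones had small differences. Ranked by unadjusted p among protein-coding genes that did not overlap, and without having passed the correction, they included *Prmt1*, *Npepl1*, *Epop*, *Arhgef25*, *Mpi*, *Slc25a29*, *Smyd2*, *Pgap4* and *Ssbp4*, with log2 fold changes of 0.40 to 0.71. *Prmt1*, the main arginine methyltransferase of the cell, was at 5670, 3997, 5031 and 5030 in WT and at 6774 and 7554 in Het (0.54, standard error 0.18), but at 6663 and 2599 in KO. *Slc25a29*, a mitochondrial carrier of basic amino acids, was at 37.1, 43.1, 42.8 and 46.9 in WT, at 75.6 and 63.6 in Het and at 91.1 and 102 in KO (0.71, standard error 0.28). Here all 4 mutant libraries lay above all WT libraries. *Epop*, which binds Polycomb complexes, was at 178, 154, 205 and 168 in WT and at 266 in both Het libraries (0.59, standard error 0.22).

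The lower genes that ranked first had larger differences and included platelet genes. By the same rule they were *Plek*, *F2rl2*, *Pf4*, *Rbpms2*, *Nprl3*, *Rec114*, *Setd1b*, *Itgb3*, *Ppbp* and *Dennd4a*, with log2 fold changes of -1.07 to -5.23. *Pf4*, a chemokine of platelet granules, was at 1296, 541, 757 and 409 normalized counts in WT 0, 1, 5 and 8 and at 78.1 and 164 in Het. *Ppbp*, another platelet chemokine, was at 207, 22.0, 312 and 71.7 in WT and at 4.29 and 3.53 in Het, where it rests on 5 and 3 raw counts. *Itgb3*, the integrin subunit of the platelet fibrinogen receptor, was at 147, 51.1, 85.6 and 172 in WT and at 16.3 and 21.2 in Het. All 3 were low in both Het libraries, the ranking having been limited to genes without overlap. They passed in DESeq2, at adjusted p = 0.0011, 0.000738 and 0.00806.

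The KO libraries divided for these genes, with *Pf4* at 376 and 1537, *Ppbp* at 17.2 and 354 and *Itgb3* at 41.5 and 192 in KO 2 and KO 9. *Plek*, a substrate of protein kinase C in platelets, was at 312, 389, 281 and 389 in WT and at 144 and 142 in Het (log2 fold change -1.26, standard error 0.25). *F2rl2*, a thrombin receptor of mouse platelets, was at 148, 82.2, 157 and 119 in WT and at 25.8 and 40.0 in Het (-1.95, standard error 0.40). *Setd1b*, a histone H3 lysine methyltransferase, was at 128, 114, 126 and 128 in WT, at 59.2 and 50.6 in Het, and at 87.1 and 174 in KO (-1.17, standard error 0.26). *Rec114*, known from meiotic recombination, was at 113, 106, 116 and 86.7 in WT and at 44.6 and 41.2 in Het (-1.29, standard error 0.29).

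DESeq2's 22 calls were all lower in Het. By the marker lists, they held 3 of 8 megakaryocyte genes tested, 3 of 14 hepatoblast genes and 1 of 8 endothelial or stromal genes. Over all genes, DESeq2 called 0.160% lower. The 22 were *Nprl3*, *Plek*, *F2rl2*, *Pf4*, *Rbpms2*, *Rec114*, *Setd1b*, *Itgb3* and *Ppbp* from the 10 above, *Lyve1*, *Fga*, *Alb* and *Apob* from the marker lists, 8 genes named after their values were seen (*Alox12*, *Sardh*, *Spp2*, *Sparc*, *Esam*, *Cpeb4*, *Timd2* and *Rhox5*) and 1 gene without a symbol. *Alox12*, the platelet lipoxygenase, was at 66.5, 24.1, 67.9 and 65.5 in WT and at 1.72 and 4.71 in Het. *Timd2*, a receptor for heavy-chain ferritin, was at 39.7, 20.04, 28.2 and 34.5 in WT and at 3.43 and 3.53 in Het. *Rhox5*, an X-linked homeobox gene, was at 6.40, 53.1, 60.6 and 58.4 in WT and at 0 and 3.53 in Het, so that WT 0 stood near Het. These are low counts in a sorted erythroid sample, and fewer cells of a type and less RNA per cell cannot be told apart in bulk libraries.

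The markers of other cell types moved with the libraries and are given here as whole lists. All 14 hepatoblast genes were tested, 13 were below 0 and 10 lay below all WT libraries (9.06% of all genes did), with a median of -2.48. Their summed level was 15658 and 15258 normalized counts in WT 0 and 8, 2817 and 3573 in WT 1 and 5, 2069 and 1350 in Het and 1663 and 8023 in KO. *Alb*, the albumin gene that defines liver parenchyma, was at 2430, 346, 408 and 2138 in WT and at 193 and 108 in Het. *Hnf4a* and *Krt18*, also of the hepatoblast, overlapped (-0.24 and 0.12). Against WT 1 and 5 only, the median of the list was -1.05.

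The megakaryocyte list, of which 8 of 10 were tested, had a median of -0.72, and 4 genes lay below all WT libraries (9.06% of all genes did). Its sum was 1120 and 943 in Het against 2928, 1476, 2282 and 2197 in WT, and 1404 and 3603 in KO. *Itga2b* and *Gp1ba*, which define the lineage beside *Pf4*, had log2 fold changes of -0.33 and -0.18, and *Gp1bb* was at 0 in all WT and Het libraries. The median was -0.31 against WT 1 and 5 only. Of the endothelial and stromal list, 8 of 10 were tested. *Lyve1*, of liver sinusoids, was at 98.5, 27.1, 36.5 and 69.0 in WT and at 5.15 and 2.35 in Het, on 6 and 2 raw counts. *Pecam1*, found in all endothelium, was level at a log2 fold change of 0.00. The list median was -1.35, and it was -2.95 without Het 3, -0.70 without Het 4 and -0.06 against WT 1 and 5 only. The sums of the list were 377, 236, 232 and 435 in WT, 197 and 113 in Het and 245 and 369 in KO.

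Macrophage genes had a median of -1.25, which was -0.67 without WT 0, with *Fcna* and the complement genes *C1qa*, *C1qb* and *C1qc* among the low ones and *Lyz2* and *Csf1r* above 0. *Fcna*, a ficolin, was at 139, 23.0, 65.8 and 78.8 in WT and at 18.03 and 14.1 in Het. *Siglec1* was at 0 in both Het libraries and in WT 5, and the summed list was at 1533 and 2242 in Het within a WT range of 1358 to 2346. Of 11 neutrophil genes tested, 8 were above 0 and 3 below, and both Het libraries lay above all WT libraries for 3 (*Mpo*, *Elane* and *Ctsg*, all of primary granules) and below for 1, beside 9.14% and 9.06% of all genes. The 2 genes at an unadjusted p under 0.05 were both lower, namely *Ltf* and *Mmp8*, of later granules, at log2 fold changes of -4.90 and -3.09. *Ltf* was at 19.2, 62.1, 0 and 54.9 in WT and at 0 and 2.35 in Het, and *Mmp8* at 6.40, 7.01, 9.40 and 46.02 in WT and at 2.58 and 1.18 in Het. *Mpo*, the peroxidase of myeloid granules, was at 5627, 38582, 31395 and 4073 in WT 0, 1, 5 and 8 and at 45968 and 44318 in Het, and the summed list was at 8402, 54963, 47455 and 5061 in WT, 64710 and 64298 in Het and 67241 and 71592 in KO. *Ly6g*, of mature neutrophils, was at 0 in every S1 library. The list median of 0.97 was 0.60 without WT 8 and 0.19 against WT 1 and 5 only, and 2.83 with male libraries only. Mast or basophil genes followed, with 4 of 8 tested, a median of 0.77 and sums of 87.0 to 752 in WT and of 539 and 674 in Het. Lymphoid genes, 6 of 8 tested, all overlapped, with a median of -0.40. How far such cells contribute to any gene's difference was not tested.

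With sex as a covariate, many genes of these lists passed. In edgeR that fit called 1.46% of all genes lower and 1.30% higher. It called 17 of 36 terminal erythroid genes, 11 of 14 hepatoblast genes, 3 endothelial or stromal genes and 2 megakaryocyte genes lower, and 6 of 11 neutrophil and 3 of 4 mast or basophil genes higher. It called 2 of 43 mTORC1 pathway genes lower and 0 of 43 interferon-stimulated genes. DESeq2 with the same covariate, which called 341 genes higher and 452 lower of 13752, called 5 of the mTORC1 pathway genes lower and 11 of the interferon-stimulated genes higher. The medians of the lists moved as well, to -1.33 for terminal erythroid, -3.16 for hepatoblast, -1.12 for megakaryocyte, -2.04 for endothelial or stromal, -1.70 for macrophage, -0.39 for erythroid regulator, -0.16 for sterol synthesis, -0.15 for cell cycle, -0.08 for mTORC1 pathway, -0.07 for ATF4 target, -0.04 for autophagy and lysosome and 0.00 for serine and one-carbon genes. *Nprl3* passed there too, at a log2 fold change of -1.27 (edgeR adjusted p = 0.0239).

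The chromosome 11 neighbourhood of *Nprl3* was examined since the deletion lies there. Within 5 Mb of its start, 41 other genes were tested, with a median log2 fold change of -0.14. Of these, 7 lay below all WT libraries and 1 above, beside 9.06% and 9.14% of all genes. *Mpg*, a DNA glycosylase gene that overlaps *Nprl3* on the other strand, was at 302, 291, 299 and 345 in WT, at 338 and 350 in Het and at 359 and 318 in KO (0.15, standard error 0.20). *Snrnp25*, of the minor spliceosome, was at 2449, 2745, 2548 and 1451 in WT and at 2186 and 2721 in Het (0.09, standard error 0.27). *Rhbdf1* was too low to be tested and *Il9r* was at 10.3 and 16.5 in Het against 10.6 to 21.04 in WT. On the other side lie the α-globin genes, whose levels are given above with the maturation genes and beside the β-globin genes of chromosome 7.

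Farther away, *Cpeb4*, a translational regulator whose start lies at -395496 bases from that of *Nprl3*, was at 192, 88.2, 77.3 and 367 in WT and at 27.5 and 22.4 in Het. Its log2 fold change was -2.85 (standard error 0.74, DESeq2 adjusted p = 0.013), and it was named after its value was seen. *Psme4*, a proteasome activator gene at -1495981 bases, was also below all WT libraries (-1.04, standard error 0.33).

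**Figure D5:**
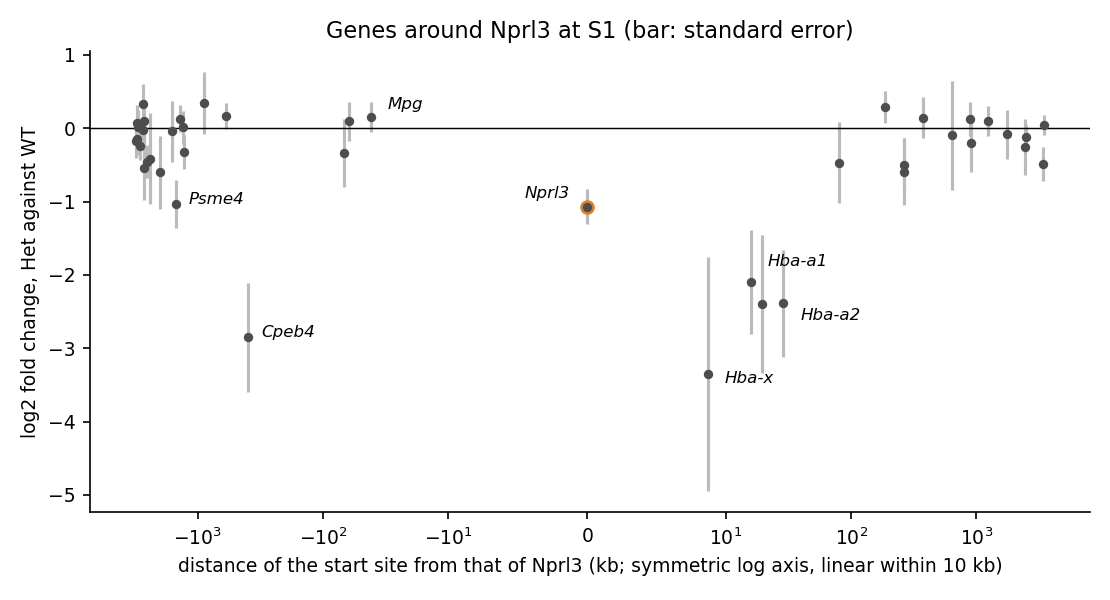
Log2 fold change of Het against WT with its standard error (vertical axis) for the tested genes within 5 Mb of Nprl3, by the distance of their start sites from its own (horizontal axis, in kb, symmetric log). Nprl3 at 0 stands at -1.07, its neighbours Mpg and Snrnp25 lie at 0.15 and 0.09, and the α-globin genes and Cpeb4 lie below -2.

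Sex-linked genes matched the labels and marked where sex enters the comparison. The study assigned sex from reads on chromosome Y, so the match of the Y-linked genes does not check the labels. *Xist*, made from the inactive X chromosome, was at 2405 and 1128 in WT 1 and 5 and at 19.2 or less in the 4 male libraries. *Ddx3y*, a Y-linked helicase gene, was at 1594 and 2538 in WT 0 and 8, at 1589 and 1454 in Het and at 4.01 or less in the female WT libraries. The X-linked genes *Kdm6a*, *Eif2s3x*, *Ddx3x* and *Kdm5c*, which escape inactivation, lay below all WT libraries, male ones included. *Kdm6a* was at 562 and 1174 in the male WT libraries and at 501 and 378 in Het.

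At S3, the later stage sampled from the same embryos, the Het effect on *Nprl3* was smaller in value, with a log2 fold change of -0.32 (standard error 0.19) against WT. The difference between the stages came to 0.74 (standard error 0.27), short of the threshold (edgeR interaction term without pairing by embryo, adjusted p = 0.9999). Over 13364 genes, 0 passed the test of a difference between the stages (0%), and 382 had an unadjusted p under 0.05. *Setd1b* was at 0.11 against WT at S3, and *Plek* and *Pf4* at -1.39 and -1.54, on the same side as at S1.

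When KO was compared with Het at S1, 1 gene of 13917 passed (0.00719%), and it was *Nprl3*, lower in KO by a log2 fold change at -4.64 with a standard error of 0.39 (adjusted p = 0.0149 in edgeR). With the Het and KO libraries only, 15 genes passed, and with sex as a covariate 7. *Nprl3* no longer passed when any 1 of the 4 Het or KO libraries was left out, with log2 fold changes of -5.34 to -4.21. KO and Het are each set against the same WT libraries, so their values are given side by side only. Against WT, *Nprl3* was at -5.71 in KO and -1.07 in Het, *Gpt2* at 1.38 and 0.35, *Cmpk2* at 1.07 and 0.31, *Slc25a29* at 1.18 and 0.71, and *Pf4* at 0.35 and -2.64.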

How the data were processed

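Polyadenylated RNA of sorted S1 and S3 foetal liver erythroblasts was amplified and sequenced with 1 library per embryo and stage. Alignment by the authors used STAR 2.7.9 and the mm39 genome, and they counted read pairs per gene with featureCounts 1.6.4 against Ensembl release 104, without strand (option 0), and deposited raw counts of 55416 genes. The sources also name deepTools 3.3.1. Multi-mapping pairs, and pairs over more than 1 gene, were left uncounted, so near-identical and overlapping genes can be undercounted, and strand does not separate antisense pairs. Of 20 library columns, 4 matched no sample and were not used. Gene identifiers matched a symbol for 54749 genes.

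From these counts, genes with a mean normalized count above 10 were tested in edgeR 4.0.16 (quasi-likelihood test, TMM scaling, Benjamini-Hochberg adjustment, R 4.3.3) on the 6 libraries, with DESeq2 1.42.0, a sex covariate, other scalings, filters and library sets as alternatives. DESeq2 is the tool the study used. Normalized counts are TMM-scaled over the 8 S1 libraries. P-values of the comparisons within S1 measure the spread between embryos. The main test of the difference between stages treats both libraries of an embryo as separate. The scripts were tested on simulated data. S1 and S3 libraries of 1 embryo come from the same animal and so are paired for the stage comparison, and their deviations from the means of their groups correlated at 0.0515 to 0.339 over 13364 genes.

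The genes named were *Nprl3* and its neighbours, the study's metabolic genes, the 10 protein-coding genes per direction with the smallest p among those without overlap and with a mean of at least 50 (none passed the correction), the 3 genes of smallest p per list, and the sex-linked genes. Some genes that this rule names are not reported here. Other list members are given to show a group, and were chosen with their values seen. The comparison, the gene lists and the tests were chosen with earlier results of these data known.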

Additional observations from a re-analysis of the deposited data

Results flagged for a closer look

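In 12 of 119 values tested in the 4 WT libraries, 1 library lay apart from the other 3 by Dixon's ratio. Chance flags about 1 in 20 independent groups, but these values share the same 4 libraries. The ratio is relative to the range, so *Setd1b* was flagged at 114.2 in WT 1 against 126 to 128 in the others. WT 8 was the lowest library for *Psph* (2267 normalized counts), *Mpi* (788.6), *Pgap4* (1435) and *Ssbp4* (1899), and the highest for *Tfrc* (29948) and *Mmp8* (46.02). It was also the lowest in the share of counts taken by the top 100 genes (16.45%) and by ribosomal protein genes (2.861%). WT 1 was the lowest for *Npepl1* (2097) and *Setd1b* (114.2) and the highest for *Ifit3* (24.05) and *Rag1* (55.11).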

How the results depend on the processing

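The 0 calls of edgeR in either direction were also found with all 8 S1 or all 16 libraries, without a filter on low counts or with filterByExpr, with upper-quartile or RLE scaling, without globin genes, without the sex chromosomes, with the newer quasi-likelihood method, with a length offset and without each library in turn. The median over all genes was -0.11 without a filter. DESeq2 called 22 genes lower and, with sex, 341 higher and 452 lower, edgeR with sex 179 and 202, and edgeR on male libraries 176 and 245. Against female WT libraries only, 4 were higher and 1 lower. *Nprl3* passed in DESeq2 (-1.06), DESeq2 with sex (-1.27), edgeR with sex (-1.27) and male libraries (-1.27, edgeR adjusted p = 0.029), and lay between -1.16 and -0.93 when 1 library was left out. Why these fits differ was not tested. KO against Het gave 15 genes with the Het and KO libraries only, 7 with sex, and 0 to 1 with 1 library left out, where *Nprl3* ranged from -5.34 to -4.21 (edgeR adjusted p = 0.0828 to 0.1405). With the embryo as a replicate block, which uses the pairing of S1 and S3, 0 genes differed between the stages; the block was applied to this comparison alone. Of the results for single genes and lists, 686 kept their direction and side of the threshold or moved little, 26 passed only under the alternative and 23 values moved by more than the spread. With 2 Het libraries, no single-value permutation test can go below p = 0.0667.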
